A study of Rattus with 18 samples.

Results

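The cardiomyocyte calcium, myosin and stress signalling genes are Sln, Myl4, Nrg1, Crhr2 and Lifr, 5 of the 34 genes that the authors' deposited tables name for infarcted rat left ventricle after infusion of an extracellular matrix (iECM). They were chosen by symbol from those tables, so the deposited fold changes and p-values that put them there are given as a description and are not tested again. Of the 5, Sln, Myl4, Crhr2 and Lifr were listed for day 3, and Nrg1 was listed for day 1. RNA of 18 samples of left ventricular free wall from Sprague-Dawley rats was counted with barcoded hybridization probes (NanoString), after an infarction of 35 min in all groups. By the agent and time labels, there were 4 control and 5 iECM samples at day 1 and 4 control and 5 iECM samples at day 3. Groups were taken from the agent label, although the treatment text is the same for all 18 samples and describes iECM being infused, also for the 8 labelled control. What was given in place of iECM for those 8 samples is not stated in the sources used here.

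In a heart muscle cell, calcium released from the sarcoplasmic reticulum drives contraction, and the calcium pump SERCA returns it for relaxation. Sln encodes sarcolipin, a small membrane peptide that inhibits SERCA, and Myl4 encodes the essential light chain of atrial myosin. Both are known as genes of the atria in the adult heart. Nrg1 encodes neuregulin, a growth factor released by endothelial cells that acts on ErbB receptors of cardiomyocytes. Crhr2 encodes the receptor for urocortins, stress peptides that raise cyclic AMP in the heart, and Lifr encodes the receptor for leukemia inhibitory factor, which signals with Il6st through JAK-STAT.

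The value table holds counts for 394 numbered rows with no gene names. No row is therefore assigned to any of the 5 genes, and their levels in single samples cannot be given. The label could not be checked against markers of cardiomyocytes for the same reason. After 6 rows read as positive controls and 8 read as negative controls were set apart, the counts of the other 380 rows summed to between 816397 and 1687688 per sample. The negative-control rows held between 2 and 31 counts. No pair of samples was identical. Whether samples came from different rats is not stated by the labels. The p-values therefore reflect only how these samples vary, which may be technical. In such bulk tissue, fewer cells of a type and less RNA per cell cannot be told apart.

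In the deposited tables the fold change comes with no stated log base and no stated direction. These were read by pairing each deposited fold change and lr score (a likelihood ratio, from which the deposited p-values follow as a chi-square tail with 1 degree of freedom) with the nearest unnamed row. In a count model with a background term and scaling on control rows, the mean distance at day 3 was 0.0566 for log2 of iECM over control, 0.303 for the reverse, and 0.189 for the natural log of iECM over control. At day 1 the distances for log2 were 0.104 and 0.177, so by this mean the direction is less sure there. The 1 probe called at day 1 in that model stood at -0.608 with a likelihood ratio of 15.6. Acta2, first by p-value in the deposited list of that day, stood at -0.607 with an lr score of 15.5. Among probes of positive fold the largest likelihood ratio was 13.0, at a fold of 0.161. No row is assigned to Acta2 by this. With the background term under TMM scaling (edgeR's trimmed mean of log ratios), the day 3 distances were 0.343 and, for the reverse, 0.380, which hardly separates the directions. With edgeR's folds and likelihood ratios the mean distance was 0.487 against 0.526 for the reverse at day 3, and 0.754 against 0.692 at day 1, where the reverse was nearer. With scaling on the positive-control rows, edgeR's distances were 0.803 against 0.965 for the reverse at day 3, and 0.965 against 1.12 at day 1. The background term under TMM scaling gave 0.490 against 0.756 at day 1. The smallest distances on both days came from the control-row scaling, which was chosen after the data were seen. The reading therefore rests mainly on it. All signs below follow the reading as log2 of iECM over control.

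The calcium and myosin genes had the largest readable values of day 3. Sln stood at a log2 fold change of 1.96, or 3.89-fold higher with iECM, with lr = 5.51, p = 0.0190 and q = 0.542 in the authors' deposited table. Myl4 stood at 1.87, or 3.67-fold higher, with lr = 9.07, p = 0.00260 and q = 0.182 in the authors' deposited table. These were first and second by size among the 22 listed genes whose fold can be read as a size (Rnase1, listed at 25.9, was left out), where the median size was 0.46 and the largest among genes other than the 5 was 1.16, that of S100b. By p-value they were placed lower, Myl4 as number 5 and Sln as number 13 of 23. The fold of Myl4 in the authors' deposited table was 0.956 times that of Sln on the log2 scale, but its lr score was 1.65 times as large.

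**Figure D1:**
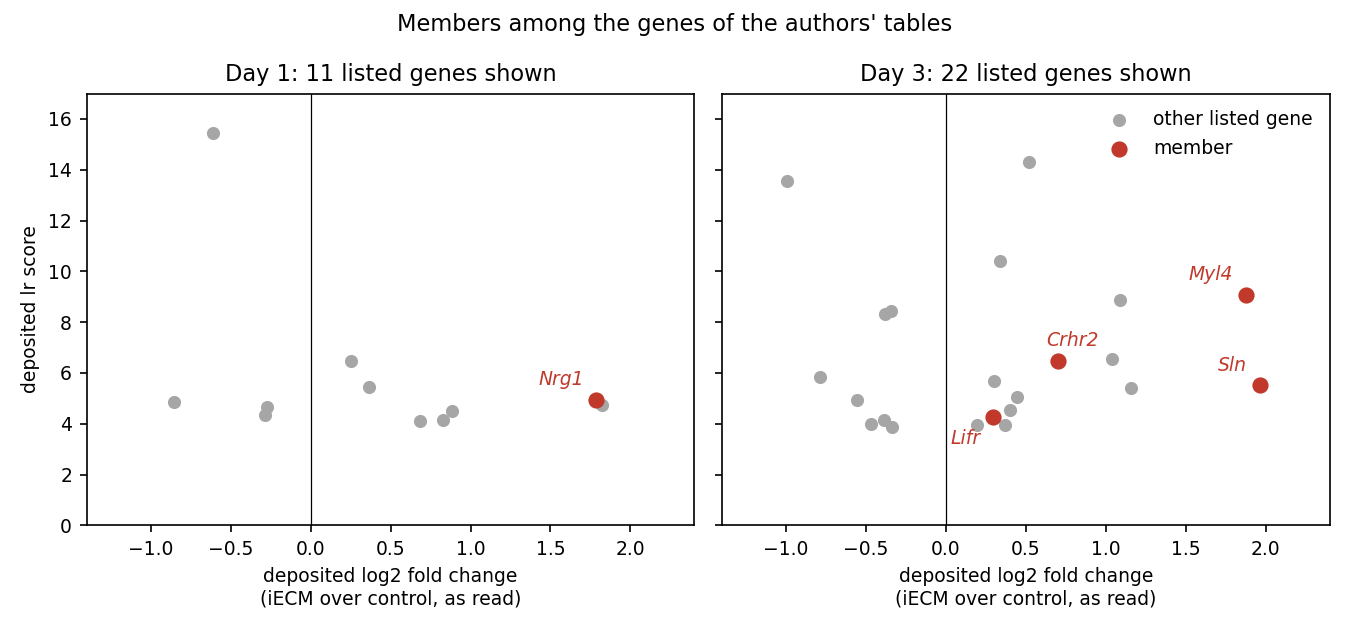
Deposited log2 fold change (horizontal axis, iECM over control as read) against the deposited lr score (vertical axis, no unit) for the genes listed for day 1 (left, 11 genes) and day 3 (right, 22 genes, without Rnase1), with the 5 described genes in red. Sln and Myl4 lie farthest to the right at day 3, with Sln at the lr score of 5.51 and Myl4 at 9.07, and Nrg1 lies at 1.79 at day 1.

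Among the receptors, Crhr2 stood at 0.70, or 1.63-fold higher with iECM, with lr = 6.48, p = 0.0109 and q = 0.408 in the authors' deposited table. Lifr stood at 0.30, or 1.23-fold higher, with lr = 4.28, p = 0.0385 and q = 0.646 in the authors' deposited table. In the authors' deposited table the fold of Sln was 6.64 times that of Lifr on the log2 scale, while its lr score was 1.28 times that of Lifr. Thus the order by fold was Sln, Myl4, Crhr2, Lifr, and the order by p-value in the authors' deposited table was Myl4, Crhr2, Sln, Lifr.

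Nrg1, the ligand of the group, stood at 1.79, or 3.45-fold higher with iECM at day 1, with lr = 4.93, p = 0.0263 and q = 0.989 in the authors' deposited table. It was second by size among the 11 genes of that day, next to Il23a, a cytokine subunit, at 1.82 in the authors' deposited table, and number 4 by p-value. A value for Nrg1 at day 3, or for the other 4 genes at day 1, is not in these tables, whose largest listed p was 0.0429 at day 1 and 0.0486 at day 3. A difference between the days for any of the 5 genes was therefore not tested.

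Of the 5 genes, 0 had a q under 0.05 in the authors' deposited tables. Over all genes of that test, 2 of 374 (0.535%) had such a q at day 3 and 1 of 374 (0.267%) at day 1. The day 3 table listed 23 of 374 genes (6.15%), 15 of them higher with iECM (4.01%), and the day 1 table listed 11 of 374 (2.94%), 7 of them higher (1.87%), or 4 of 374 if the less sure sign of that day is turned. Since the 5 genes were chosen from the lists, their presence there and their shared positive sign show nothing beyond the choice.

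Of the related genes in the lists drawn up for this work, few were named in the deposited tables, and which others were measured is not known. Sln was the named gene of 12 in the calcium cycling list, Myl4 of 15 in the sarcomere list, Nrg1 of 12 in the neuregulin and ErbB list, and Crhr2 of 7 in the corticotropin-releasing factor list. The interleukin-6 and LIF family list of 16 genes had Lifr and Il6, a cytokine of the acute inflammatory response, which stood at -0.79 (q = 0.531) in the authors' deposited table, opposite in sign to Lifr. Junb, a transcription factor subunit induced by stress, was the named gene of 9 natriuretic and stress genes, and it stood at -0.34 (q = 0.182) in the authors' deposited table. None of these had a q under 0.05.

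Of 6 markers of atrial myocardium, 2 were named, Sln and Myl4 themselves, and of 6 markers of ventricular myocardium, 0 were. Sln and Myl4 count here by the choice of the 5 genes, and the lists were drawn up with earlier results known. Which of the other markers were measured is not known. The contrast of 2 and 0 is therefore not read as a sign of atrial tissue. Over all tested genes, 6.15% were listed at day 3 and 2.94% at day 1. Of 6 markers of Schwann and nerve cells, S100b and Prx were named for day 3, with fold changes of 1.16 (q = 0.542) and 0.37 (q = 0.646) in the authors' deposited table. Of 6 macrophage and neutrophil markers, Mmp8 was named, with a fold change of 1.09 (q = 0.182) in the authors' deposited table. Of 5 fibroblast markers, Acta2, smooth muscle actin, was named for day 1, at -0.61 (q = 0.0314) in the authors' deposited table, and of 4 endothelial markers 0 were named. The part of such cells or tissue in the values of Sln and Myl4 was not tested, since the marker levels of each sample cannot be read from unnamed rows.

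The unnamed counts show what folds of these sizes look like in single samples. At day 3, edgeR's quasi-likelihood test called 0 of 371 probes (0.0%) between iECM and control at an adjusted p under 0.05. Before adjustment, 11 (2.96%) passed 0.05. At day 1 it likewise called 0 of 371 (0.0%), with 3 (0.809%) passing 0.05 before adjustment. The number called on each day was 0 with DESeq2 (8 and 4 at an unadjusted p under 0.05 for day 3 and day 1) and 0 with limma (9 and 4), and 0 on each day with a background term under TMM scaling. With the background term and control-row scaling, fitted to the samples of each day alone, 2 of 374 probes were called at day 3 and 1 at day 1. That model gave too many small p-values on data simulated without change. The simulation used TMM scaling and spread its background as well as its signal, unlike the fit to the counts. How far the excess holds for these calls is therefore not known. Only 2 probes had an edgeR log2 fold above 1 at day 3 (0.539%), those in rows 75 and 270, and none did at day 1.

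**Figure D2:**
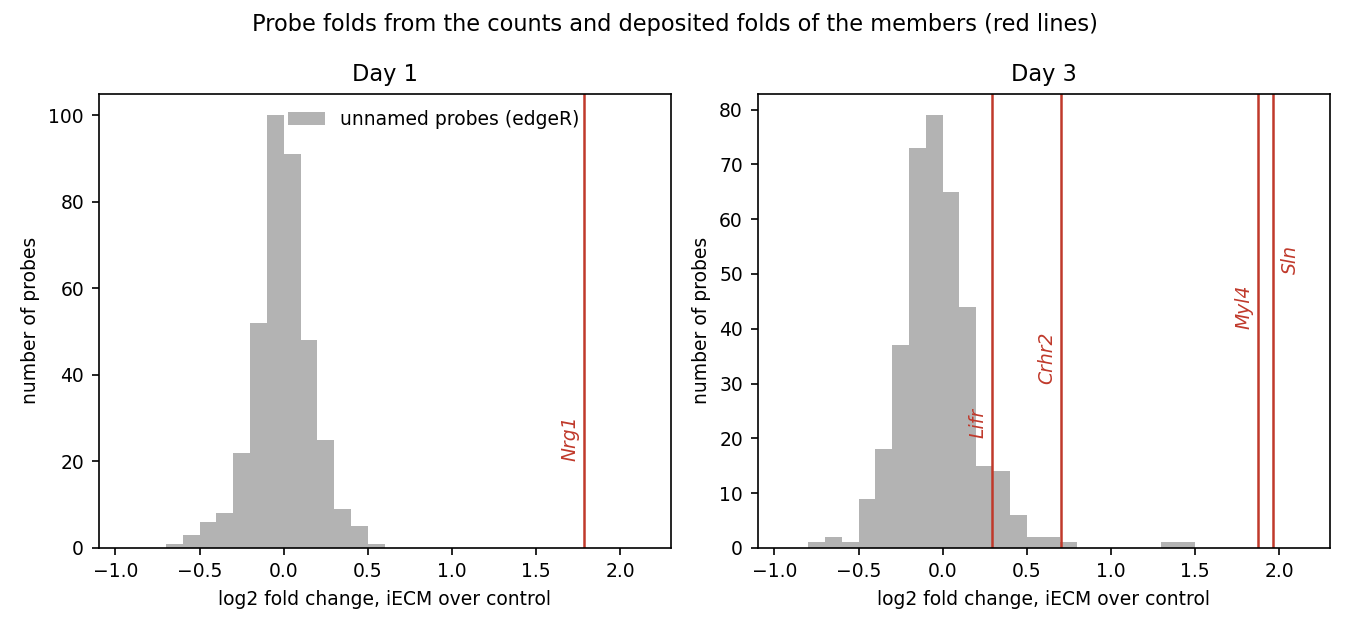
Number of unnamed probes (vertical axis) by edgeR log2 fold change of iECM over control (horizontal axis) at day 1 and day 3, with the deposited fold changes of the 5 genes as red lines. Nrg1 at day 1 and Sln and Myl4 at day 3 lie beyond every probe, whose largest edgeR folds were 0.52 and 1.49, and Crhr2 and Lifr lie inside the range of day 3. With the background term and control-row scaling, not drawn here, some probes reached the values of Sln, Myl4 and Nrg1.

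The deposited values of Sln, Myl4 and Nrg1 exceeded the edgeR fold of every probe on their day, the largest being 1.49 at day 3 and 0.52 at day 1. For Crhr2, 3 of 371 probes (0.809%) had an edgeR fold at least as large as its deposited value, and for Lifr 28 (7.55%) did. These shares depend on the model. With the background term and control-row scaling, 343 probes had a signal in both groups at day 3. Of those, 2 reached the value of Sln, 4 that of Myl4, 14 that of Crhr2 and 72 that of Lifr. At day 1, 2 of 335 reached that of Nrg1. Fitted to the samples of day 3 alone, edgeR put row 270 at 1.45 and row 75 at 1.59. A background term under TMM scaling put them at 1.66 and 1.70. With the background term and control-row scaling they stood at 1.99 and 1.94, and the next probe among those with an unadjusted p under 0.05 and a signal in both groups was at 1.13. At day 1, 2 probes reached 1.83 and 1.86 under the latter model. Both were chosen after their values were seen. They held between 10 and 33 counts in the samples of that day, close to the 2 to 31 of the negative-control rows, and were not called (lowest adjusted p = 0.762). No probe with an unadjusted p under 0.05 and a signal in both groups lay below -0.98 at day 3 in it, and a reversed reading put Sln and Myl4 at distances of 1.19 and 1.11 from the nearest row, against 0.219 and 0.173 as read. Under TMM scaling these were 1.01 and 0.836 against 0.385 and 0.337. For Crhr2 the distances were 0.0459 as read and 0.0794 in the reverse with control-row scaling, but 0.255 and 0.254 with TMM scaling, which does not tell its directions apart. For Lifr they were 0.00875 and 0.0886 with control-row scaling, and 0.15 and 0.177 with TMM scaling. Nrg1 had 0.163 and, in the reverse, 0.277 with control-row scaling, where a probe at -2.05 was present, and 0.239 and 1.33 with TMM scaling.

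The probe in row 75 showed wide spread between samples of 1 group. At day 3 its level (CPM, edgeR's count per scaled library size) was 104, 132, 91.0 and 94.4 in the control samples and 769, 113, 154, 117 and 328 in the iECM samples. The iECM samples 1 and 5 lay far above the control range, sample 3 was slightly above it, and samples 2 and 4 were inside it, so the groups overlapped. The group means were 105 ± 18.6 and 296 ± 278 CPM (SD, n = 4 and n = 5), and edgeR's log2 fold was 1.49 (95% interval -0.66 to 3.63, edgeR adjusted p = 0.901). Without iECM replicate 1 of day 3 the fold was 0.79. The interval and adjusted p came from the model of all 4 groups, whose spread takes in that of day 1. With the day 3 samples alone, edgeR's unadjusted p was 0.0246. The background term with control-row scaling gave 0.00152 (adjusted p = 0.113), and DESeq2 and limma on all samples gave 0.113 and 0.295 unadjusted. Since the row was chosen for its fold, these p-values describe it and do not test it. Its spread between samples does not show how any of the 5 genes varied.

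Row 270 was also highest in iECM samples 1 and 5 of day 3, at a lower level. In some samples it lay at the background: control sample 2 of day 3 held 17 counts and control sample 2 of day 1 held 13, where the negative-control rows averaged 15.5 and 13.9. Its day 3 levels were 33.7, 14.6, 69.5 and 34.6 CPM in the control samples and 247, 29.5, 54.0, 38.6 and 132 CPM in the iECM samples. The other 3 iECM samples lay within the control range. The means were 38.1 ± 22.9 and 100.3 ± 91.7 CPM (SD, n = 4 and n = 5), with an edgeR log2 fold of 1.35 (95% interval -0.80 to 3.51, edgeR adjusted p = 0.901), which was 0.76 without iECM replicate 1 of day 3. With the day 3 samples alone, edgeR's unadjusted p for row 270 was 0.0617. The background term with control-row scaling gave 0.0104 (adjusted p = 0.330), and DESeq2 and limma on all samples gave 0.147 and 0.276 unadjusted. This row too was chosen for its fold. The value table does not say which genes rows 75 and 270 measure.

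**Figure D3:**
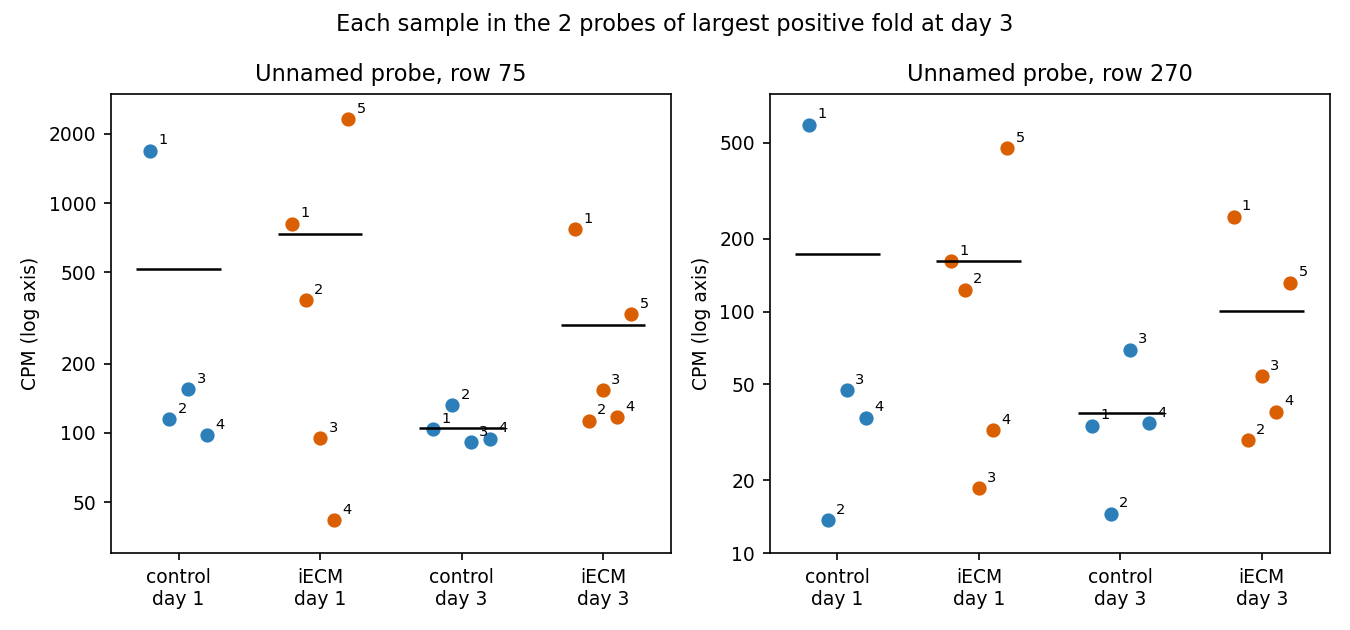
Level of the unnamed probes in rows 75 and 270 in each sample (CPM, log axis), by group, with the replicate number beside each point, control in blue, iECM in orange and the group mean as a black line. High samples occur in control and iECM at day 1 and in iECM samples 1 and 5 at day 3, and 4 of the 5 highest samples are the same in both probes.

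At day 1, which played no part in choosing these rows, row 75 stood at 1692, 115, 155 and 97.7 CPM in the control samples and 814, 379, 94.8, 41.6 and 2323 CPM in the iECM samples. Row 270 stood at 595, 13.7, 47.3 and 36.4 CPM in the control samples and 162, 123, 18.5, 32.4 and 476 CPM in the iECM samples. Control sample 1 and iECM samples 1, 2 and 5 were high in both rows, and the agents overlapped over nearly the whole range. The edgeR log2 folds were 0.52 (95% interval -1.53 to 2.57) for row 75 and -0.06 (95% interval -2.08 to 1.96) for row 270, each with an edgeR adjusted p of 0.998. Without control replicate 1 of day 1 they were 2.62 and 2.38, and without iECM replicate 5 of day 1 they were -0.61 and -0.99. The difference of the iECM effect between the days was 0.97 (95% interval -1.95 to 3.88) for row 75 and 1.41 (95% interval -1.52 to 4.34) for row 270, with an edgeR adjusted p of 0.928 for each, and it turned to -1.02 and -0.91 without control replicate 1 of day 1. It was 2.09 and 2.35 without iECM replicate 5 of day 1, and 0.21 and 0.77 without iECM replicate 1 of day 3. Over all probes, the test of that difference by edgeR gave 0 calls among 371 (0.0%), and 10 (2.7%) passed 0.05 before adjustment. DESeq2 and limma gave 0 calls as well, with 12 and 11 passing 0.05 before adjustment.

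The authors also deposited an enrichment of gene ontology (GO) biological process terms and KEGG pathways among the 23 day 3 genes. These terms show what is annotated to the members and which listed genes stand beside them. Of 707 GO terms in the authors' deposited table, 99 (14.0%) held at least 1 of the 5 genes, 10 held a pair of them and 0 held 3. Crhr2 was in 91 terms, Sln in 12, Myl4 in 5 and Lifr in 1, where the median listed gene was in 31. Nrg1 was not among the day 3 genes and so was in none. The terms share their genes and are not independent, and their background was 17962 genes, more than the 374 that were tested. What share of the 374 belongs to each term is not known. The background shares and p-values of the terms below therefore also depend on which genes were chosen for measurement.

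**Figure D4:**
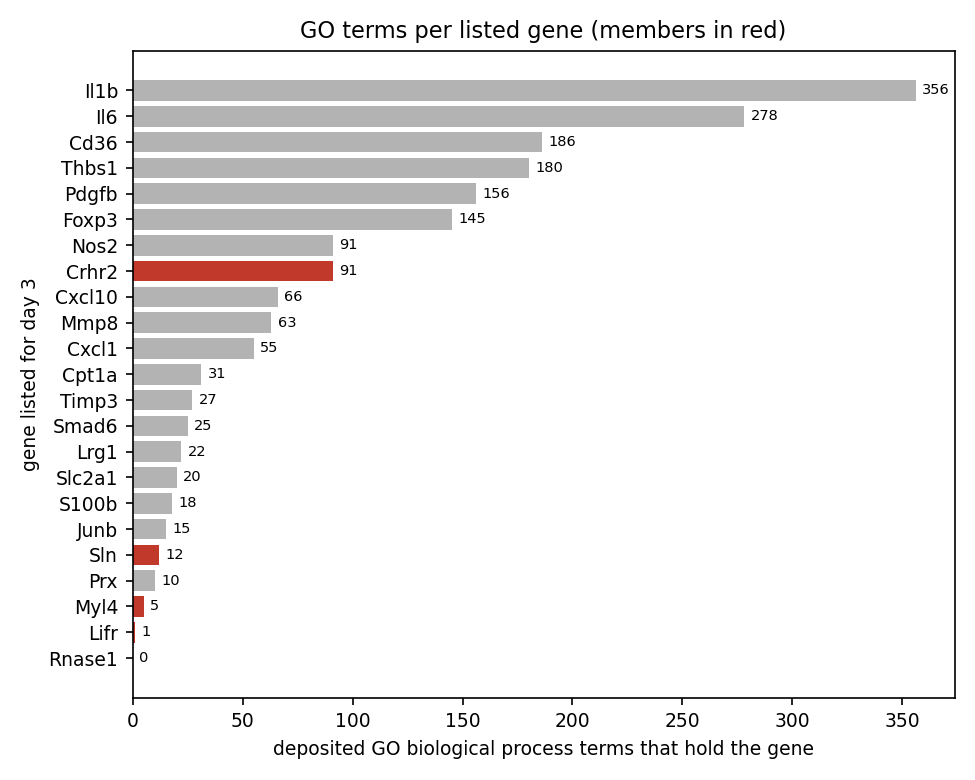
Number of deposited GO biological process terms (horizontal axis) that hold each gene listed for day 3 (vertical axis), with the described genes in red. Crhr2, in 91 terms, is level with Nos2, while Sln, Myl4 and Lifr, in 12, 5 and 1, are near the lower end.

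The terms of Sln concerned ion transport and heat. Its smallest adjusted p was 0.00258, for regulation of metal ion transport, which held 5 of the 23 genes (21.7%, against 2.41% of the background) in the authors' deposited table. Next were regulation of calcium ion transport (adjusted p = 0.00422), temperature homeostasis (adjusted p = 0.0108, with Cd36 and Il1b), calcium ion transport (adjusted p = 0.0127) and divalent metal ion transport (adjusted p = 0.0160) in the authors' deposited table. In each of the calcium terms just named, Sln stood with Crhr2, Cxcl10, an interferon-induced chemokine, and Pdgfb, a platelet-derived growth factor subunit. Of those, Cxcl10 alone had a negative fold, -0.56, in the authors' deposited table. Divalent inorganic cation transport (adjusted p = 0.0162) held the same 4 genes in the authors' deposited table, and was the last of 5 terms with both Sln and Crhr2. Cold-induced thermogenesis (adjusted p = 0.0454), named after its values were seen, held Sln with the fatty acid transporter Cd36 in the authors' deposited table.

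All 5 terms of Myl4 also held Crhr2 and Nos2, the inducible nitric oxide synthase. Blood circulation had the smallest adjusted p, 0.00376, with Cd36 and Pdgfb as further genes in the authors' deposited table. Regulation of heart contraction (adjusted p = 0.0105), heart contraction (adjusted p = 0.0140), heart process (adjusted p = 0.0150) and regulation of blood circulation (adjusted p = 0.0180) rested on Crhr2, Myl4 and Nos2 alone in the authors' deposited table. For heart contraction these 3 genes were 13.0% of the 23, against 1.21% of the background. Crhr2 and Myl4 had positive folds there and Nos2 a negative one, -0.99 (q = 0.0437), in the authors' deposited table, so the sole gene of the 3 with a q under 0.05 was the one lower with iECM.

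The terms of Crhr2 of smallest adjusted p concerned cytokine production and steroid response. Its term of smallest adjusted p, 7.81e-07, was interleukin-6 production, with 7 of the 23 genes (30.4%, against 0.946% of the background) in the authors' deposited table. Regulation of interleukin-6 production (adjusted p = 1.27e-05), response to glucocorticoid (adjusted p = 1.39e-05), response to corticosteroid (adjusted p = 1.72e-05) and regulation of vasculature development (adjusted p = 2.07e-05) followed in the authors' deposited table. Crhr2 shared 51 of its 91 terms with Il1b (56.0% of its own and 14.3% of the 356 of Il1b) and 31 with Il6 (34.1% and 11.2% of 278). Over all 707 terms, Il1b was in 50.4% and Il6 in 39.3%, so nothing particular to Crhr2 is read from these shares. At least 1 gene with a negative fold in the authors' deposited table was in 72 of the 91 terms (79.1%), and in 600 of all 707 (84.9%). In response to glucocorticoid, Crhr2 and S100b were positive and Cxcl1, Il1b, Il6, Junb and Nos2 negative in the authors' deposited table. For 10 of its terms, among them epinephrine secretion (adjusted p = 0.0412 in the authors' deposited table, named after its value was seen), Crhr2 was the single gene.

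Lifr was in 1 GO term, cytokine-mediated signaling pathway (adjusted p = 2.48e-04), beside Cxcl1, Cxcl10, Il1b, Il6 and Pdgfb in the authors' deposited table, where Lifr and Pdgfb were positive and the other 4 negative. It was the one gene of the 5 in the KEGG table. Cytokine-cytokine receptor interaction (adjusted p = 0.00162) held Lifr with Cxcl1, Cxcl10, Il1b and Il6, and JAK-STAT signaling pathway (adjusted p = 0.0130) held it with Il6 and Pdgfb in the authors' deposited table. In the first of these, Lifr alone had a positive fold.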

How the data were processed

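RNA from 18 samples was hybridized to NanoString probes (50 to 100 ng per sample, per the labels' protocols). The authors deposited whole-number counts per numbered row, read as raw because totals differ, and their upstream tools are not given in the sources. The authors' deposited gene tables hold, per the file headers, a log fold change (read here as log2), a p-value, a q-value and an lr score for each gene. The number of genes they tested, 374, was computed from the deposited p-values and q-values.

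Rows 375 to 380 and 381 to 388 were read as positive and negative controls from their values, a ladder of mean counts from 47449 to 68 and counts of at most 31. On the other 380 rows edgeR 4.0.16 (R 4.3.3) was run with filterByExpr at a minimum count of 10, which kept 371, TMM scaling and quasi-likelihood tests of contrasts between the means of the 4 groups, adjusted after Benjamini-Hochberg with a threshold of 0.05. Its scripts were tested on simulated data. DESeq2 1.42.0 and limma 3.58.1 (pseudocount 1) were alternatives. The model with a background term fits each day's mean as the mean of the negative-control rows plus a scaled signal, with scale from the positive-control rows and rows 389 to 394, and row dispersions drawn toward the median of rows with a mean count over 60. In data simulated without change, more than the nominal share of its p-values fell under 0.05. Those data had TMM scaling and a dispersion on background plus signal, whereas the model puts the dispersion on the signal only.

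Named in the text are the 5 genes, for each the 5 GO terms of smallest adjusted p, each term with a pair of them, each KEGG term with one, the genes of fixed lists that the deposited tables name, and at most 2 unnamed rows per direction. The 5 genes and the lists were chosen with earlier results of these data known. All 5 symbols and all 15 Entrez identifiers of the KEGG table matched NCBI RefSeq's gene table (GRCr8). No coordinates were used.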

Additional observations from a re-analysis of the deposited data

Results flagged for a closer look

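Among 16 checks of a sample far from the rest of its group (rows 75 and 270, the summed gene count and the mean of the negative-control rows, in 4 groups), 2 passed the limit, both for control replicate 1 of day 1. Its level was 1692 CPM in row 75, where the next control sample of that day had 155 CPM, a gap of 0.964 of the group's range, past the limit for 4 samples. In row 270 its level was 595 CPM against 47.3 CPM for the next sample, a gap of 0.942 of the range. For normally distributed values, chance alone flags about 1 in 20 such groups. Rows 75 and 270 were chosen for their folds and their values were skewed. In the iECM samples of day 1, row 75 had a mean of 731 and an SD of 942 CPM. That rate may therefore not hold for them, and both flags come from the same sample.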

How the results depend on the processing

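No paired analysis was possible because replicates carry no number in the labels. Depth was not varied, but probes near the 2 to 31 counts of the negative-control rows limit any fold. The models with a background term and the tests of rows 75 and 270 were chosen after seeing the data. The counts of 0 called probes at day 1, at day 3 and for the difference between the days were 0 with DESeq2, limma and the other scalings and filters and with each sample left out, and became 1 at day 1 and 2 at day 3 with the background term and control-row scaling (0 with it under TMM scaling). Probes at an unadjusted p under 0.05 ranged from 3 to 33 at day 3, from 0 to 23 at day 1 and from 0 to 14 for the difference, and with a sample left out from 3 to 25, 2 to 19 and 7 to 34.

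The margin of the direction reading (the distance of the reverse minus that of log2 of iECM over control) was 0.0392 at day 3 and -0.0615 at day 1 with edgeR. At day 3 it was -0.00559 by the median gap in fold alone, 0.0775 with DESeq2, 0.0216 without a filter, 0.162 with positive-control scaling, and 0.0373 and 0.247 with a background term under TMM and control-row scaling. In that order it was -0.0785, 0.0300, 0.0697, 0.159, 0.267 and 0.0730 at day 1. The cause was not tested.

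Rows 75 and 270 were higher with iECM at day 3 in all 8 alternatives each, from 1.07 to 1.94 and from 1.09 to 1.99, and with each sample left out, from 0.79 to 1.69 and from 0.76 to 1.82. Both were chosen for their positive fold in these same samples, so their sign at day 3 was nearly fixed by the choice. At day 1 row 270 turned to 0.53 with limma and 0.32 with positive-control scaling. With a sample left out it ranged from -0.99 to 2.38 and row 75 from -0.61 to 2.62. The difference between the days then ranged from -1.02 to 2.09 for row 75 and from -0.91 to 2.35 for row 270.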
